A study of Mus musculus with 8 samples.

Results

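The genes described here are 55 members of the Wnt signalling pathway, out of 31053 genes in the deposited count matrices. They are the genes with symbols that begin with Wnt or Fzd and a digit, and the Dkk and Sfrp genes that end in 1 digit. To these come 18 further receptors, signal transducers, nuclear factors and feedback genes. The rule used symbols only, though it was set with earlier results of these data known. By role they comprise 19 ligands, 10 frizzled receptors, 5 other receptors (Lrp5, Lrp6, Ror1, Ror2 and Ryk), 10 secreted inhibitors, 5 feedback genes (Axin2, Nkd1, Nkd2, Rnf43 and Znrf3), 2 signal transducers (Axin1 and Ctnnb1) and 4 nuclear factors (Lef1, Tcf7, Tcf7l1 and Tcf7l2). Single-cell transcriptomes were generated from SN4741, a mouse neural precursor line that carries a heat-sensitive SV40 T antigen, with the genotype given as wild type in the labels. Of the 8 libraries, 4 came from cells at 37 °C in medium with 10% serum, and 4 from cells placed at 39 °C in 0.5% serum 24 hours after passage and harvested 48 hours later. Temperature and serum therefore cannot be told apart, and "39 °C" below stands for both. The line is a single immortalised line with an unstable, polyploid karyotype, and the labels do not say that the 4 libraries of a temperature came from separate cultures, so p-values measure the spread between these libraries.

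Wnt ligands are secreted lipid-modified proteins that bind frizzled receptors together with Lrp5 or Lrp6, or with Ror and Ryk receptors in other branches of the pathway. In the canonical branch, binding stops the destruction complex built on Axin from marking β-catenin (Ctnnb1) for degradation, and β-catenin then acts on genes with TCF and LEF factors. Axin2, Nkd1, Nkd2, Notum, Rnf43 and Znrf3 are known as feedback genes that dampen the signal when it is on, and in the developing midbrain Wnt signals act on the progenitors of dopamine neurons.

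Filters on cells left 18351 of 19125 barcodes, 8550 of them from 37 °C and 9801 from 39 °C. Each library held 17166686 to 29633818 UMIs, or unique molecular identifiers, each of which stands for 1 captured transcript. The median UMIs per cell were 9839 to 15413 at 37 °C and 6676 to 16665 at 39 °C, and the median mitochondrial shares were 7.55% to 7.89% and 8.04% to 8.85%. Cells assigned to G1 were 20.6% to 28.7% of a library at 37 °C and 82.5% to 85.4% at 39 °C, and cells assigned to G2M 34.2% to 37.3% and 2.94% to 5.35%. Levels are in CPM, the UMIs of a gene per 1000000 UMIs of the tested genes after TMM scaling (trimmed mean of M values) of the library totals. The summed levels of families and marker lists are instead per 1000000 of all UMIs of the kept cells, without TMM scaling. So are the mean levels by phase that include S phase, which use the UMIs of the cells of that phase. Of 8 neural progenitor markers, Nes (467 ± 54.2 and 108 ± 6.36 CPM, SD, n = 4) and Sox2 (55.4 ± 2.23 and 76.5 ± 3.25 CPM) were present at both temperatures. Msi1 had 2 and 10 UMIs and Sox1, Pax6, Hes5, Prom1 and Fabp7 had 0 to 3 at each temperature, so the label of neural precursor rested on 2 markers. Of the midbrain floor plate markers Foxa2 (14.2 and 12.8 CPM), Msx1 (9.62 and 8.01) and En1 (9.72 and 8.72) were present. The floor plate markers Lmx1a and Otx2, the neuronal marker Dcx, the glial markers Olig1 and Olig2 and the endothelial marker Cdh5 were at 0 UMIs. The 8 mesenchymal markers (led by Col1a1 and Col1a2) summed to 1811 to 1883 CPM per library at 37 °C and 908 to 941 at 39 °C. The 4 smooth muscle markers summed to 271 to 356 and 26.0 to 41.8 CPM, mostly from Acta2 and Tagln. In the mesenchymal list Twist1 went the other way (60.5 and 83.9 CPM), and Pdgfra was at 0.953 and 0.929 CPM. Dcn (10 and 12 UMIs), Lum (1 and 0), Cnn1 (19 and 3) and Myh11 (15 and 22) had few UMIs. These sums and the phase shares moved with temperature, and their part in the Wnt results was not tested, apart from the values within G1 cells given beside them.

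To show the sequence in which members that differed between cell-cycle phases begin, the bases before their transcription starts were read from RefSeq promoters (GRCm38.p6). Of the 55 members 38 had an entry, with 48 promoters, and the 5 windows shown belong to members that were lower in G2M than in G1 cells (values below). Capitals mark CTTTG, the core letters that TCF and LEF factors recognise, searched on both strands (CTTTG or CAAAG). The windows lie at chr11:108920149-108920348 (Axin2, plus strand), chr13:73847632-73847831 (Nkd2, minus strand), chr3:132085092-132085291 (Dkk2, plus strand), chr10:121033804-121033959 (Wif1, plus strand) and chr5:4758217-4758416 (Fzd1, minus strand). All are written 5′ to 3′ and end at the RefSeq start, except that of Wif1, where 44 bases that GENCODE places inside the transcript are left off.
Axin2: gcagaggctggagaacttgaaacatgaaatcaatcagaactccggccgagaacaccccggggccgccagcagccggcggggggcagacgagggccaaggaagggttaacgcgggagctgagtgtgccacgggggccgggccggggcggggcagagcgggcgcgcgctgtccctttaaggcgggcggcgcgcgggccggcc
Nkd2: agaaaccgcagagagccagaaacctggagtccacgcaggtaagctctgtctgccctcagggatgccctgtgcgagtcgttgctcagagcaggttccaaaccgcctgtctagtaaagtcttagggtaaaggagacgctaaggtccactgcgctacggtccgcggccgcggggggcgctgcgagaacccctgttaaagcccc
Dkk2: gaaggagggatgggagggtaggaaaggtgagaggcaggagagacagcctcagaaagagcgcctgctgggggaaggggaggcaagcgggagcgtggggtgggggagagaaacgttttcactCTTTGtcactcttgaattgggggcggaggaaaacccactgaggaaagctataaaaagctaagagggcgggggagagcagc
Wif1: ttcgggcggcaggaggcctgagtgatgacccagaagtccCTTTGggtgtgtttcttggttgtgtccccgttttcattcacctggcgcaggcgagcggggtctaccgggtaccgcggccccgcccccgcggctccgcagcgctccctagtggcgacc
Fzd1: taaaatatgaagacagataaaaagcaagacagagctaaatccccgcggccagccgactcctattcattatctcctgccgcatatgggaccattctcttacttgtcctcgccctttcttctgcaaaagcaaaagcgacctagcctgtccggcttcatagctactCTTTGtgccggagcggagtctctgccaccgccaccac

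The core letters stood 80 bases before the RefSeq start in Dkk2, 161 in Wif1 and 37 in Fzd1, and were not in the windows of Axin2 and Nkd2. The GENCODE start of Fzd1 lies further downstream, at chr5:4758035, so the distance to that start is longer. Over the 250 bases before the start, 22 of the 48 member promoters (45.8%) held CTTTG on either strand, against 48.6% of all 32851 promoters. The longer forms CTTTGAA or CTTTGAT were in 3 of 48 (6.25%), against 7.48% of all promoters. The members thus held these letters about as often as promoters in general, and a match describes letters only.

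The first question was which members differed in level between the temperatures. The UMIs of a library's cells were added up per gene, and in such sums fewer cells expressing a gene and less RNA per cell cannot be told apart. Of the 55 members 44 had enough counts to be tested (1 or more per library on average), and 32 of these passed an adjusted p of 0.05 in edgeR's quasi-likelihood test over 15810 genes. Of the 44, 19 were higher at 39 °C, against 31.5% of all tested genes, and 13 were lower, against 30.5%. With the further limit of a log2 fold change over 1 in size, 12 members were called higher (6.47% of all genes) and 2 lower (7.62%). Across other settings and with single libraries left out, the lowest log2 fold changes of Lef1 (0.82), Wnt9a (0.93) and Nkd2 (0.97) were under that limit. The number called lower was 4 without 37 °C replicate 1 and 1 without 37 °C replicate 4, 39 °C replicate 2 or 39 °C replicate 3. The median log2 fold change of the tested members was 0.18, and that of all tested genes 0.02. For 29 of the 44 members every library of one temperature lay above every library of the other, against 56.7% of all genes. A large share of the transcriptome differed between these conditions, and the share of members past the p limit was read against that background. The counts by role below stand against the same shares.

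**Figure D1:**
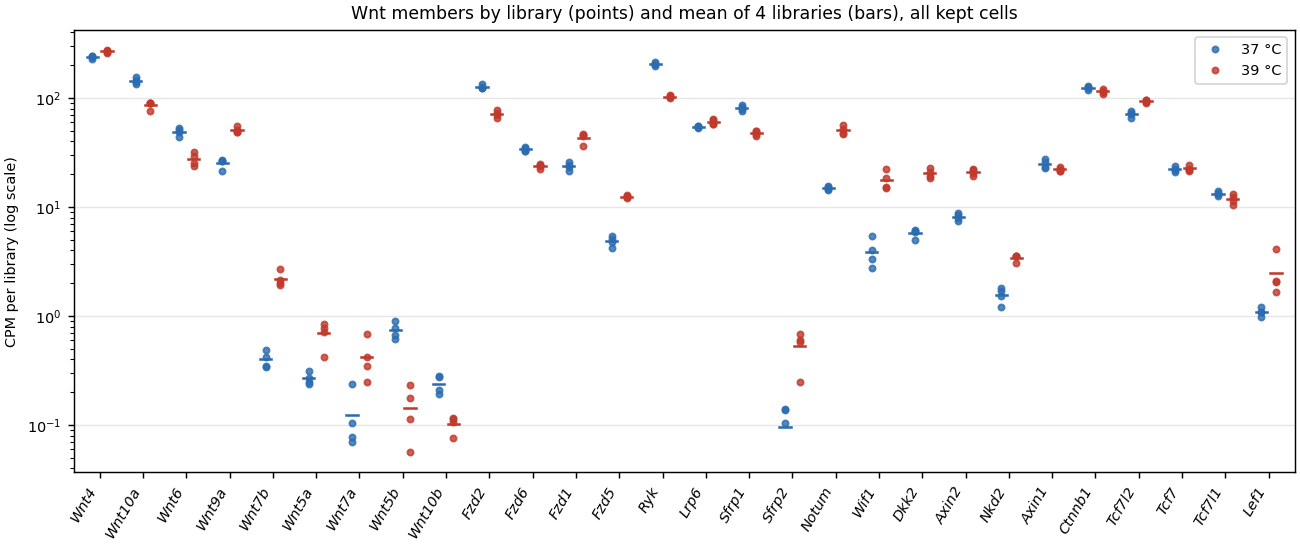
Level of 28 members in each library (points, CPM on a log scale) at 37 °C (blue) and 39 °C (red), with the mean of 4 libraries as a bar. Notum, Wif1, Dkk2, Axin2 and Fzd5 lie higher in all 4 libraries at 39 °C and Ryk, Fzd2, Wnt10a, Wnt6 and Sfrp1 lower, and 1 library with 0 counts of Sfrp2 at 37 °C is not drawn.

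The ligands were dominated by Wnt4 and Wnt10a at both temperatures, and individual ligands moved in opposite directions. Of 19 ligands 13 were tested. At 39 °C 6 were higher and 4 lower, against 31.5% and 30.5% of all tested genes. The summed level of all ligands was 453 ± 15.7 CPM (SD, n = 4) at 37 °C and 443 ± 8.86 CPM at 39 °C. Wnt4 (chr4:137277489-137299726), a ligand known for roles in kidney and gonad development, was at 241, 227, 239 and 242 CPM at 37 °C and 266, 271, 259 and 274 CPM at 39 °C. The temperatures did not overlap, and the rise was small (log2 fold change 0.17 ± 0.05, SE, adjusted p = 0.00254).

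Wnt10a (chr1:74791516-74804179), which is needed for teeth and skin appendages, was at 134, 142, 146 and 155 CPM at 37 °C and 89.3, 89.9, 90.9 and 76.6 CPM at 39 °C. It fell by 0.73 on the log2 scale (SE 0.06, adjusted p = 1.81e-09), and 39 °C replicate 4 was the lowest. Wnt6, its neighbour on the chromosome (chr1:74771892-74785322), was at 44.2, 52.7, 48.3 and 50.9 CPM at 37 °C and 31.8, 25.6, 29.4 and 23.6 CPM at 39 °C. It fell by 0.84 (SE 0.07, adjusted p = 9.35e-09) with no overlap. Wnt9a (chr11:59306928-59333552), a ligand with a role in joint formation, was at 26.9, 21.4, 26.2 and 26.2 CPM and at 51.3, 49.2, 49.3 and 55.4 CPM, and rose 2.04-fold (log2 1.03 ± 0.06, adjusted p = 5.12e-11).

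The ligands at low level included those with the larger folds. Wnt7b, known for roles in lung and in blood vessels of the brain, was at 0.343, 0.349, 0.421 and 0.491 CPM at 37 °C and 1.93, 2.01, 2.69 and 2.16 CPM at 39 °C, from 45 and 219 UMIs in all. Its rise was 5.48-fold (log2 2.45 ± 0.21, adjusted p = 3.6e-09), and every 39 °C library stood above every 37 °C library. Wnt5a, the ligand best known for signals that do not use β-catenin, was at 0.24, 0.271, 0.315 and 0.246 CPM and at 0.851, 0.719, 0.779 and 0.424 CPM (log2 1.34 ± 0.31, adjusted p = 0.000831, from 30 and 67 UMIs). Wnt5b, its close relative, went the other way, from 0.617, 0.891, 0.771 and 0.667 CPM to 0.0567, 0.114, 0.177 and 0.231 CPM. It fell by 2.23 (SE 0.35, adjusted p = 1.42e-05), on 82 and 15 UMIs. Wnt7a, the relative of Wnt7b, was at 0.24, 0.0775, 0.105 and 0.0702 CPM and at 0.681, 0.416, 0.248 and 0.347 CPM, and rose by 1.64 (SE 0.46, adjusted p = 0.00441, 14 and 39 UMIs).

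Wnt10b was at 0.274, 0.194, 0.21 and 0.281 CPM and at 0.113, 0.0757, 0.106 and 0.116 CPM (27 and 10 UMIs). It fell by 1.20 (SE 0.45, adjusted p = 0.0254). This call was lost without 37 °C replicate 4 (adjusted p = 0.0583), 39 °C replicate 2 (0.0702) or 39 °C replicate 3 (0.051), and with DESeq2 (0.0986). The same happened with no filter on low counts (0.057), with a limit of 5000 genes per cell (0.101) and with replicate numbers as a block (0.0552). Wnt11 rose by 0.81 (adjusted p = 0.0117) on 48 and 74 UMIs. Of the other 9 ligands, Wnt1 (24 UMIs), Wnt2b (13) and Wnt8b (12) did not pass, and Wnt2, Wnt3, Wnt3a, Wnt8a and Wnt16 had 1 to 5 UMIs and were not tested. Wnt9b was at 0 UMIs, which allows up to 0.0265 CPM at 37 °C and 0.0308 CPM at 39 °C (3 counts of the pooled total, counting error only). The ligands Wnt3 and Wnt3a, often used to start canonical signalling, were thus at 2 UMIs each among 18351 cells.

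As shares of all ligand UMIs, Wnt4 made up 51.8% ± 1.34 (SD, n = 4) at 37 °C and 61.1% ± 1.58 at 39 °C, and Wnt10a 31.4% ± 1.16 and 19.8% ± 1.47. The share of Wnt9a was 5.49% ± 0.51 and 11.7% ± 0.721, and that of Wnt6 10.7% ± 0.827 and 6.30% ± 0.804. Shares use 1 UMI per captured 3′ end and are not scaled by transcript length. In each library these 4 ligands held nearly all ligand UMIs.

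**Figure D2:**
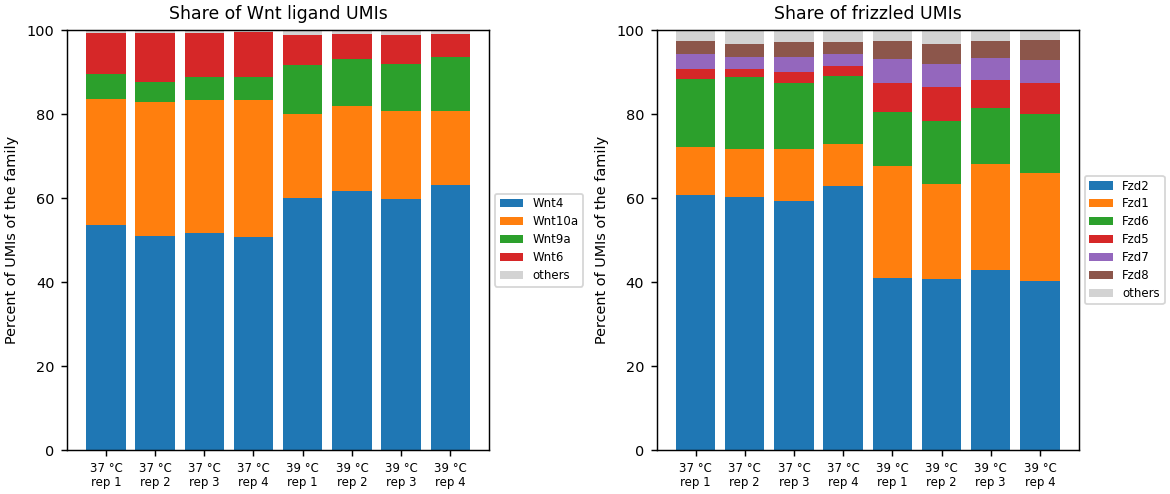
Make-up of Wnt ligand UMIs (left) and frizzled UMIs (right) in each of the 8 libraries, in percent of the family's UMIs, as stacked bars. Among frizzled receptors Fzd2 makes up 60.8% of the family at 37 °C and 41.3% at 39 °C and Fzd1 11.3% and 25.04%, and Wnt4 is the main ligand in every library.

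Frizzled genes moved in both directions, and Ryk was lower at 39 °C. Of 10 frizzled genes 9 were tested. At 39 °C 3 were higher (Fzd1, Fzd5 and Fzd7) and 4 lower (Fzd2, Fzd3, Fzd4 and Fzd6), against 31.5% and 30.5% of all tested genes. The summed frizzled level was 207 ± 5.66 CPM (SD, n = 4) and 175 ± 10.4 CPM. Fzd2 (chr11:102604396-102608058), which made up the most frizzled UMIs, was at 123, 126, 125 and 135 CPM at 37 °C and 72.2, 65.1, 78.3 and 69.8 CPM at 39 °C. It fell by 0.83 (SE 0.05, adjusted p = 1.1e-10) with a wide gap between the temperatures. Fzd1 (chr5:4753839-4758035) was at 23.2, 24.2, 25.9 and 21.4 CPM and at 46.6, 36.3, 45.7 and 44.8 CPM, and rose 1.83-fold (log2 0.87 ± 0.07, adjusted p = 3.4e-09). Replicate 2 was the lowest of the 39 °C libraries and still above all 37 °C libraries.

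Fzd5, at 4.8, 4.22, 5.4 and 5.09 CPM at 37 °C and 12.4, 12.8, 12.1 and 12.5 CPM at 39 °C, had the largest rise among tested frizzled genes (2.55-fold, log2 1.35 ± 0.08, adjusted p = 1.92e-11). Fzd6, known for its role in planar cell polarity, was at 32.8, 35.5, 32.7 and 34.6 CPM and at 22.5, 23.8, 24.4 and 24.7 CPM, and fell by 0.50 (SE 0.05, adjusted p = 4.47e-08). Fzd7 rose by 0.49 (adjusted p = 4.68e-05), Fzd3 fell by 0.31 (adjusted p = 0.0136) and Fzd4 fell by 0.98 on 68 and 30 UMIs (adjusted p = 0.02). Fzd8 (log2 fold change 0.19, adjusted p = 0.0734) and Fzd9 (25 UMIs) did not pass, and Fzd10 had 1 UMI. Within the family, the share of Fzd2 was 60.8% ± 1.51 (SD, n = 4) and 41.3% ± 1.22, and that of Fzd1 11.3% ± 0.99 and 25.04% ± 1.65.

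Ryk (chr9:102834917-102908305), a kinase-like Wnt receptor without catalytic activity, was at 204, 207, 198 and 213 CPM at 37 °C and 102, 101, 103 and 106 CPM at 39 °C. It fell by 0.995 on the log2 scale (SE 0.04, adjusted p = 3.59e-13), just under the size limit for a call, and the libraries of each temperature lay close together. Lrp6, the main co-receptor of the canonical branch in these cells by UMIs, was at 54.9, 55.5, 54.4 and 53.6 CPM and at 58, 58, 64.2 and 63.2 CPM. Its rise was slight (log2 0.16 ± 0.05, adjusted p = 0.00648), and Lrp5 did not pass (log2 fold change 0.34, adjusted p = 0.0572). Ror2, a receptor for Wnt5a, fell by 0.47 (adjusted p = 5.57e-05), and Ror1 did not pass (-0.26, adjusted p = 0.173).

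Among the secreted inhibitors some rose and 1 fell. Of 10 secreted inhibitors 6 were tested, and 4 were called higher (Notum, Wif1, Dkk2 and Sfrp2), against 6.47% of all tested genes. Sfrp1 was lower and Sfrp4 did not pass (log2 fold change -0.29, adjusted p = 0.464). Notum (chr11:120653788-120661175), an enzyme that removes the lipid from Wnt proteins and so inactivates them, was at 15.3, 14.7, 15.7 and 14.2 CPM at 37 °C and 52, 47.1, 56.1 and 47.5 CPM at 39 °C. It rose 3.38-fold (log2 1.76 ± 0.06, adjusted p = 1.19e-14), far beyond the spread of either group. Dkk2 (chr3:132085292-132180304), a ligand of Lrp5 and Lrp6, was at 6.1, 6.08, 5.89 and 4.99 CPM and at 22.6, 18.5, 20.9 and 19.4 CPM, a rise of 3.51-fold (log2 1.81 ± 0.08, adjusted p = 3.12e-13).

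Wif1 (chr10:121033960-121100650), which binds Wnt proteins outside the cell, was at 4.04, 5.39, 2.77 and 3.37 CPM at 37 °C and 15.2, 18.6, 22.3 and 14.9 CPM at 39 °C. It rose 4.63-fold (log2 2.21 ± 0.15, adjusted p = 1.76e-10), with a wider spread between libraries than Notum or Dkk2. Sfrp2, a frizzled-related decoy, was at 0.137, 0, 0.105 and 0.14 CPM and at 0.681, 0.606, 0.248 and 0.578 CPM, from 11 and 50 UMIs (log2 2.33 ± 0.49, adjusted p = 0.000386). Sfrp1 (chr8:23411502-23449632), the relative with the most UMIs, was at 86.1, 75.6, 78.8 and 82.3 CPM and at 50, 46.9, 50.1 and 45.3 CPM, and fell by 0.75 (SE 0.05, adjusted p = 2.0e-10). Of the inhibitor UMIs Sfrp1 made up 76.2% ± 1.74 (SD, n = 4) at 37 °C and 34.9% ± 1.05 at 39 °C, and Notum 14.2% ± 0.771 and 36.8% ± 0.786. The summed level of the family was 105 ± 4.18 CPM and 139 ± 10.2 CPM. Dkk1, Dkk3 and Sfrp5 had 2 to 3 UMIs and Dkk4 was at 0, with the same upper limits as Wnt9b.

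The feedback genes that act inside the cell or at its surface were higher or did not pass. Of 5 tested, Axin2, Nkd2 and Rnf43 were higher at 39 °C and none was lower, against 31.5% and 30.5% of all tested genes. Axin2 (chr11:108920349-108950783), a scaffold of the destruction complex and a widely used readout of canonical signalling, was at 8.47, 8.76, 7.99 and 7.48 CPM at 37 °C and 22.4, 20.6, 22.1 and 19.4 CPM at 39 °C. It rose 2.58-fold (log2 1.37 ± 0.07, adjusted p = 2.1e-12), with no overlap. Nkd2 (chr13:73818534-73847631), which binds Dishevelled proteins, was at 1.2, 1.71, 1.54 and 1.79 CPM and at 3.52, 3.52, 3.58 and 3.08 CPM, and rose 2.20-fold (log2 1.14 ± 0.14, adjusted p = 6.09e-07). The ubiquitin ligase Rnf43 rose by 0.93 (adjusted p = 0.00903) on 46 and 77 UMIs. Its relative Znrf3 (-0.20, adjusted p = 0.154) and Nkd1 (9 UMIs) did not pass.

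Of the 2 transducers 1 was lower at 39 °C, and of the 4 nuclear factors 2 were higher and 1 lower. Over all tested genes 31.5% were higher and 30.5% lower. Ctnnb1 (chr9:120929216-120960507), which encodes β-catenin, was at 117, 123, 127 and 128 CPM at 37 °C and 110, 114, 116 and 121 CPM at 39 °C, with overlapping libraries (log2 fold change -0.10 ± 0.05, adjusted p = 0.0671). Axin1, the other Axin scaffold, was at 23.3, 22.7, 25.9 and 27.7 CPM and at 23.1, 21.5, 22.2 and 21.6 CPM. It fell by 0.17 (SE 0.06, adjusted p = 0.0214). Axin1 no longer passed without 37 °C replicate 3 (adjusted p = 0.0542), 37 °C replicate 4 (0.0832) or 39 °C replicate 2 (0.0575), and with scaling by library totals only (0.0638).

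Tcf7l2, the nuclear factor with the most UMIs, was at 73.5, 76.5, 72 and 64.9 CPM at 37 °C and 96.3, 92.1, 96.5 and 90.2 CPM at 39 °C, and rose by 0.39 (SE 0.05, adjusted p = 2.07e-06). Lef1 was at 1.2, 1.09, 1.09 and 0.983 CPM and at 4.14, 2.08, 2.05 and 1.66 CPM (log2 1.11 ± 0.24, adjusted p = 0.00041), with 39 °C replicate 1 far above the others of its group. Tcf7 was at 22, 21, 22.2 and 23.7 CPM and at 22.5, 22.1, 24.5 and 21.4 CPM, overlapping (log2 fold change 0.03 ± 0.06, adjusted p = 0.709). Tcf7l1, often a repressor, was at 12.6, 14, 13.1 and 13.4 CPM and at 12.4, 13.1, 11.4 and 10.3 CPM, also overlapping (-0.17 ± 0.07, adjusted p = 0.0466). Tcf7l1 no longer passed without 37 °C replicate 2, 3 or 4 or 39 °C replicate 3 or 4 (adjusted p = 0.117, 0.0562, 0.0723, 0.112 and 0.165), with library totals only (0.101) and with DESeq2 (0.0591). The same held with upper-quartile factors (0.0768), a mitochondrial limit of 10% (0.0573) and a limit of 5000 genes per cell (-0.11, adjusted p = 0.269).

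To compare the temperatures within 1 assigned phase, the same test was run on cells assigned to G1. Phases were scored on the cells of both temperatures together. Cells labelled G1 may be in different states at each temperature, so phase and temperature are not fully separated here. In G1, 41 members were tested and 23 passed, 13 higher (24.8% of all 14712 genes) and 10 lower (22.4%). Of these 6 were called higher (3.87% of all genes) and 1 lower (3.92%), and the median log2 fold change was 0.06 against 0.04 for all genes. The libraries did not overlap for 15 of the 41 members, against 44% of all genes. Between all cells and G1 cells, 13 members passed as higher in both and 8 as lower in both, and 0 passed in opposite directions. The comparisons share cells, so this is not independent evidence.

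Several ligands and receptors differed between temperatures in G1 cells too. Ryk was at 207, 216, 203 and 203 CPM in G1 cells at 37 °C and 104, 102, 105 and 109 CPM at 39 °C (log2 -0.98 ± 0.05, adjusted p = 2.91e-13), Fzd2 had a difference of -0.82 (adjusted p = 1.63e-10) and Wnt9a one of 1.07 (adjusted p = 3.74e-10). Wnt7b was at 0.273, 0.186, 1.03 and 0.731 CPM and at 2.22, 2.16, 2.91 and 2.49 CPM (log2 2.16 ± 0.36, adjusted p = 2.33e-05). Fzd5 (1.13, adjusted p = 1.03e-08), Wnt10a (-0.63, adjusted p = 1.25e-08), Wnt6 (-0.65, adjusted p = 4.94e-06), Fzd6 (-0.69, adjusted p = 4.91e-08) and Wnt4 (0.19, adjusted p = 0.00524) passed in the same direction as in all cells. Sfrp1 had the larger difference in G1 cells, at 115, 122, 128 and 110 CPM and at 54.3, 48.6, 54.3 and 47.9 CPM (-1.21 ± 0.06, adjusted p = 2.47e-13). It was the 1 member called lower in G1, where RLE or upper-quartile scaling, DESeq2, equal totals or leaving out 39 °C replicate 4 gave 2.

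The inhibitors and feedback genes that rose in all cells had smaller differences in G1 cells. Notum was at 24.7, 29.4, 28.1 and 26.7 CPM in G1 cells at 37 °C and 56.6, 51.9, 61.9 and 52.2 CPM at 39 °C (log2 1.04 ± 0.08, adjusted p = 1.09e-10). Dkk2 was at 11.1, 11.5, 9.48 and 8.59 CPM and at 23.2, 20.3, 22.2 and 21.4 CPM (1.09 ± 0.10, adjusted p = 2.75e-09), and both remained called with no overlap. Axin2 was at 13.5, 16, 17.4 and 12.8 CPM and at 25, 22.5, 24.9 and 21.5 CPM, and rose by 0.66 (SE 0.09, adjusted p = 3.93e-06) in place of 1.37 in all cells. Wif1 was at 13.1, 20.5, 9.65 and 12.4 CPM and at 17.4, 21.7, 26 and 17.2 CPM, overlapping, with a rise of 0.59 (SE 0.16, adjusted p = 0.00384) in place of 2.21. Wif1 no longer passed in G1 with DESeq2 (adjusted p = 0.0786). Nkd2 was at 2.05, 4.09, 4.14 and 5.3 CPM and at 3.9, 3.91, 4.21 and 3.57 CPM and did not pass (0.05 ± 0.20, adjusted p = 0.863). The differences between the all-cell and G1 values were not tested.

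Among the rest, Tcf7l2 (0.28, adjusted p = 0.000452), Fzd1 (0.28, adjusted p = 0.0106), Lef1 (0.90, adjusted p = 0.0498) and Sfrp2 (1.76, adjusted p = 0.0478) were higher in G1 cells at 39 °C, and Tcf7 (-0.28, adjusted p = 0.00326), Tcf7l1 (-0.27, adjusted p = 0.0334) and Ctnnb1 (-0.17, adjusted p = 0.0136) were lower. Wnt5a (0.12, adjusted p = 0.843), Wnt7a (2.51, adjusted p = 0.0833), Wnt5b (-0.85, adjusted p = 0.36), Wnt10b (-0.72, adjusted p = 0.537), Lrp6 (0.06, adjusted p = 0.458) and Axin1 (-0.02, adjusted p = 0.876) did not pass. The results for Lef1, Sfrp2 and Tcf7l1 rest on few libraries. Lef1 no longer passed without any 1 of the 37 °C replicates 1, 2, 3 or 4 (adjusted p = 0.111, 0.0528, 0.169 and 0.0863) and without 39 °C replicate 1 (0.58 on the log2 scale, adjusted p = 0.0974). Sfrp2 no longer passed without 37 °C replicate 1, 2 or 3 or 39 °C replicate 1, 2 or 4 (0.0628, 0.137, 0.143, 0.0677, 0.0777 and 0.0837). Tcf7l1 was lost without 37 °C replicate 2, 3 or 4 or 39 °C replicate 3 or 4 (0.109, 0.0689, 0.0869, 0.0721 and 0.0957), Fzd1 without 37 °C replicate 1 or 4 (0.0725 and 0.0641), and Ctnnb1 without 37 °C replicate 4 (0.0657). When phases were scored within each library, the G1 differences were 1.10 for Axin2, 1.45 for Wif1, 0.58 for Fzd1 and 0.73 for Nkd2 (adjusted p = 0.00339), and Tcf7 (adjusted p = 0.324) and Ctnnb1 (0.198) no longer passed.

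**Figure D3:**
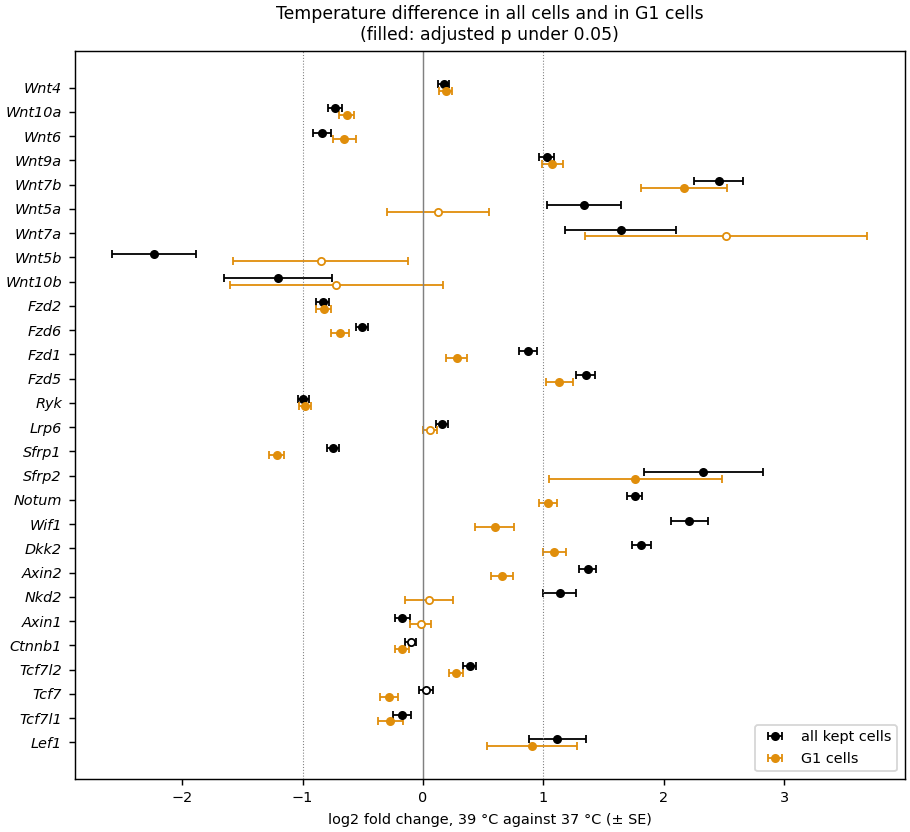
Log2 fold change at 39 °C against 37 °C (± SE) of 28 members in all kept cells (black) and in G1 cells (orange), with filled points for an adjusted p under 0.05. Ryk, Fzd2 and Wnt9a have nearly the same value in both, and Wif1 (2.21 and 0.59), Nkd2 (1.14 and 0.05) and Axin2 (1.37 and 0.66) do not.

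The next question was whether members differ between phases within a temperature. Sums of the G1 and of the G2M cells of each library were compared in 1 model with the library as a block. The G2M sums held 9908670 to 11819921 UMIs at 37 °C and only 449856 to 1483712 at 39 °C, so values at 39 °C are less precise. At 37 °C, 40 members were tested, and 2 were higher in G2M (21.6% of all 14378 genes) and 15 lower (19.6%), with a median log2 fold change of -0.26 against 0.01 for all genes. At 39 °C, 1 was higher (11.7% of all genes) and 12 lower (14.2%), with a median of -0.32 against -0.05. With upper-quartile scaling the split at 37 °C was 0 higher and 19 lower. Of the 55 members 0 are in the gene lists that assign phases.

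Of the secreted inhibitors 4 of 6 tested, and of the feedback genes 2 of 4, passed as lower in G2M at each temperature, and 0 as higher. Over all genes 19.6% were lower in G2M at 37 °C and 14.2% at 39 °C. Wif1 was at 13.1, 20.7, 9.76 and 12.5 CPM in the G1 sums at 37 °C and at 1.01, 1.05, 1.32 and 0.697 CPM in the G2M sums (log2 -3.75 ± 0.19, adjusted p = 1.45e-40). At 39 °C it was at 17.4, 21.9, 26.1 and 17.3 CPM in G1 and at 0, 0, 2.62 and 2.99 CPM in G2M (-3.59 ± 0.33, adjusted p = 6.59e-19), from 8 UMIs in G2M. In each library the G2M value was far below the G1 value.

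Nkd2 was at 2.05, 4.14, 4.18 and 5.33 CPM in G1 and at 0.827, 0.734, 0.658 and 0.523 CPM in G2M at 37 °C (-2.48 ± 0.30, adjusted p = 7.75e-13). At 39 °C its difference was -2.13 (adjusted p = 0.0023, 4 UMIs in G2M), and the call was lost without 39 °C replicate 3 (-1.48, adjusted p = 0.0918). Axin2 was at 13.5, 16.2, 17.6 and 12.9 CPM in G1 and at 6.99, 7.65, 4.89 and 5.23 CPM in G2M at 37 °C (-1.28 ± 0.13, adjusted p = 4.05e-17), and its difference at 39 °C was -2.02 ± 0.23 (adjusted p = 3.97e-13). These intracellular feedback genes were thus lower in every G2M sum than in the G1 sum of the same library.

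Dkk2 was at 11.1, 11.7, 9.59 and 8.63 CPM in G1 and at 3.77, 3.25, 3.67 and 2.53 CPM in G2M at 37 °C (-1.62 ± 0.16, adjusted p = 1.88e-17). At 39 °C it was at 23.3, 20.4, 22.3 and 21.5 CPM in G1 and at 26.8, 6.07, 14.4 and 7.46 CPM in G2M (-0.91 ± 0.19, adjusted p = 6.82e-05), with replicate 1 against the direction of the others. Notum had differences of -1.30 ± 0.10 at 37 °C (adjusted p = 8.44e-26) and -1.35 ± 0.14 at 39 °C (adjusted p = 1.7e-16). Fzd1 had differences of -1.19 ± 0.08 (adjusted p = 3.33e-29) and -1.06 ± 0.14 (adjusted p = 3.1e-11), and Sfrp1 of -0.95 ± 0.06 (adjusted p = 3.07e-34) and -0.80 ± 0.14 (adjusted p = 6.33e-07). Sfrp1 was thus lower in G2M than in G1, as were Wif1, Dkk2 and Notum, while its temperature difference was opposite to theirs. Sfrp2 (adjusted p = 0.464 and 0.884) and Sfrp4 (0.763 and 0.796) did not pass at either temperature. Tcf7 (-0.74 and -1.01) and Tcf7l2 (-0.31 and -0.59) passed as lower in G2M at both temperatures, as did Wnt4 (-0.17 and -0.30) and Lrp6 (-0.17 and -0.32). For Wnt4, 39 °C replicate 2 went against the direction, with 277.5 CPM in G1 and 287 CPM in G2M. At 37 °C Wnt4 no longer passed with DESeq2 (adjusted p = 0.0752) or without the block (0.0852).

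At 37 °C, Fzd6 (-0.38, adjusted p = 1.83e-06), Fzd8 (-0.69, adjusted p = 0.000114), Fzd7 (-0.34, adjusted p = 0.0464) and Wnt5a (-1.78, adjusted p = 0.025) were also lower in G2M. The 2 members higher in G2M at 37 °C were Wnt10a (0.19, adjusted p = 0.000261) and Axin1 (0.27, adjusted p = 0.00552). Without 37 °C replicate 4 Wnt10a was at 0.12 (adjusted p = 0.0575), and without 37 °C replicate 1 Axin1 was at 0.17 (adjusted p = 0.178) and Lrp6 no longer passed (0.178). Fzd7 was lost without 37 °C replicate 1, 2 or 4 (0.168, 0.171 and 0.101), and Wnt5a without 37 °C replicate 2, 3 or 4 (0.145, 0.151 and 0.0786). At 39 °C Ctnnb1 (-0.19, adjusted p = 0.0405) was lower and Ror2 (0.68, adjusted p = 0.0456) the 1 member higher in G2M. Ctnnb1 was lost without 39 °C replicate 2, 3 or 4 (0.125, 0.135 and 0.0845), Ror2 without 37 °C replicate 2 or 39 °C replicate 2, 3 or 4 (0.062, 0.113, 0.142 and 0.241), and Lrp6 at 39 °C without 39 °C replicate 4 (0.157). With phases scored within each library, the 39 °C differences were -1.68 for Wif1, -0.998 for Axin2, -0.57 for Fzd1, -0.19 for Notum and 0.01 for Wnt4 (adjusted p = 0.934), and those of Ror2 and Lrp6 no longer passed.

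Whether the phase difference itself changed with temperature was tested as an interaction. Of 40 members 0 had a phase difference that was higher at 39 °C (2.46% of all genes) and 1 had a lower one (5.22%). This was Wnt10a, with 0.19 at 37 °C and -0.21 at 39 °C (difference -0.39 ± 0.10, adjusted p = 0.00448). In each library, the log2 ratio of G2M to G1 was 0.21, -0.05, 0.18 and 0.39 at 37 °C and -1.05, -0.20, -0.20 and 0.05 at 39 °C, so the temperatures overlapped. Wnt10a no longer passed with library totals only (-0.28, adjusted p = 0.0856), with filterByExpr (0.06), without the block (0.0911) or with DESeq2 (0.228). Nor did it pass with an upper limit of 5000 genes (0.143), with equal totals (0.488), or with phases scored within each library (-0.09, adjusted p = 0.367). With that scoring 8 members passed in place of 1, 6 with a higher and 2 with a lower phase difference at 39 °C. Leaving out single libraries moved the number of members past the threshold from 1 to 2 without 37 °C replicate 2, 37 °C replicate 3 or 39 °C replicate 1, to 3 without 39 °C replicate 4 and to 4 without 39 °C replicate 2.

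**Figure D4:**
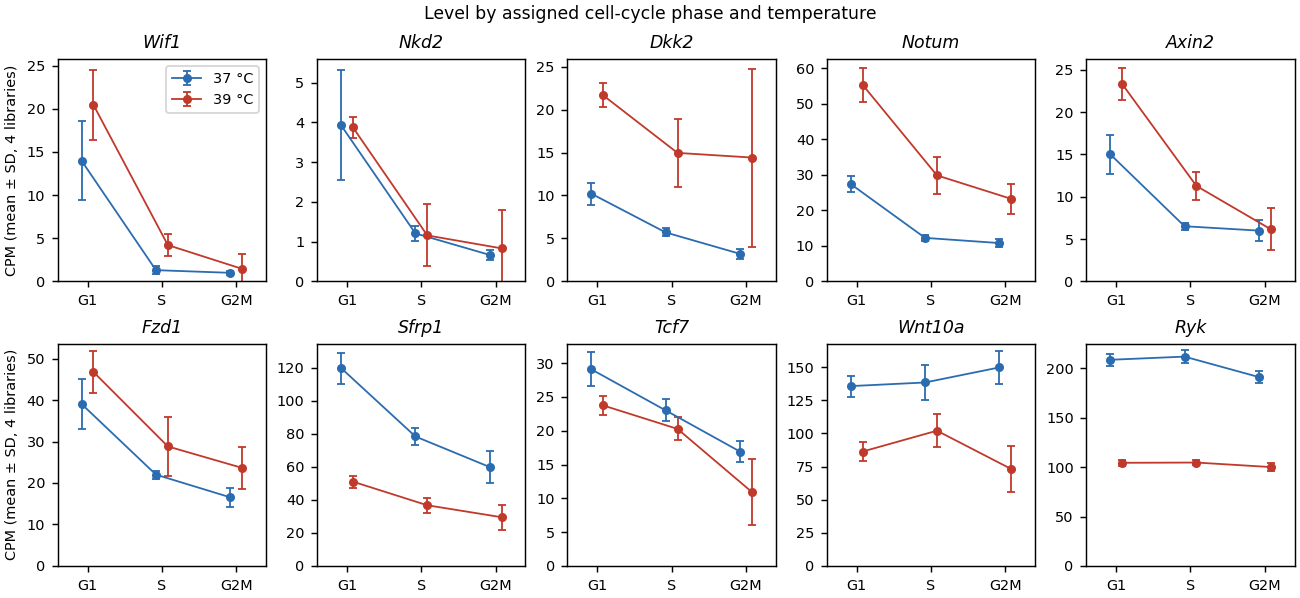
Level of 10 members by assigned phase (mean ± SD of 4 libraries, CPM) at 37 °C (blue) and 39 °C (red). Wif1, Nkd2, Notum and Axin2 have their highest level in G1 at both temperatures, Dkk2 has a wide spread in G2M at 39 °C, and Ryk has a similar level in each phase with values near 209 and 104 in G1.

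Levels in S phase were not tested and are given for 3 members. Wif1 had 13.98 ± 4.59 CPM (SD, n = 4) in G1, 1.30 ± 0.492 in S and 0.989 ± 0.253 in G2M at 37 °C, and 20.4 ± 4.08, 4.2 ± 1.27 and 1.45 ± 1.68 CPM at 39 °C. Axin2 had 15.03 ± 2.33, 6.52 ± 0.414 and 5.999 ± 1.25 CPM at 37 °C and 23.3 ± 1.85, 11.3 ± 1.68 and 6.16 ± 2.47 CPM at 39 °C. Ryk had 209 ± 5.84, 212 ± 6.95 and 191 ± 6.32 CPM at 37 °C and 104 ± 3.22, 105 ± 2.29 and 100.02 ± 4.17 CPM at 39 °C, and so differed far more between temperatures than between phases.

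To see how many cells carried the members, each cell was thinned to 5000 UMIs, which left out 668 cells at 37 °C and 1668 at 39 °C. No cell population known to lack these genes was present in the libraries, so the share due to free RNA in the droplets could not be set beside these values. Notum had a UMI in 7.17% ± 0.574 (SD, n = 4) of cells at 37 °C and 20.2% ± 1.49 at 39 °C (15.7% and 36.3% before thinning), Axin2 in 4.14% ± 0.151 and 9.64% ± 0.559 (10.1% and 20.3%), and Wnt10a in 41.9% ± 2.19 and 30.4% ± 1.961 (64.8% and 48.6%). Wnt4 had a UMI in 61.0% ± 1.20 and 61.3% ± 1.22 of thinned cells (84.4% and 79.1%), and Ryk in 59.8% ± 0.526 and 38.9% ± 1.01 (85.2% and 64.4%). The ligand Wnt4 and the receptors Ryk and Fzd2 (42.5% ± 1.502 and 26.6% ± 1.81 thinned, 69.9% and 45.9% before) were thus found in a large part of the cells.

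Some members were held by fewer cells than their mean level would give if all cells were alike. At the measured mean UMI per cell, an equal level in all cells (a Poisson share) would give Wif1 in 2.26% of cells at 37 °C and 8.60% at 39 °C, and it was found in 1.54% ± 0.401 (SD, n = 4) and 5.62% ± 0.621 (3.01% and 9.44% before thinning). For Dkk2 the equal-level shares were 3.04% and 10.0%, and the measured ones 2.56% ± 0.158 and 7.79% ± 0.642 (5.77% and 13.8%). For Sfrp1 they were 31.3% and 20.9%, and the measured ones 25.1% ± 1.61 and 15.7% ± 0.491 (45.3% and 27.3%). Wnt4 was also below, with equal-level shares of 70.1% and 74.1% and measured ones of 61.0% and 61.3%. So was Wnt10a, with 50.5% and 35.7% against 41.9% and 30.4%. Ryk at 39 °C (40.1% against 38.9%) and Axin2 at 37 °C (4.27% against 4.14%) lay close to the equal-level share, and Ryk at 37 °C was at 63.6% against 59.8%. The gap was thus not particular to Wif1, Dkk2 and Sfrp1, and it was not set beside that of other genes. These are descriptions of counts in cells, which are not replicates.

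**Figure D5:**
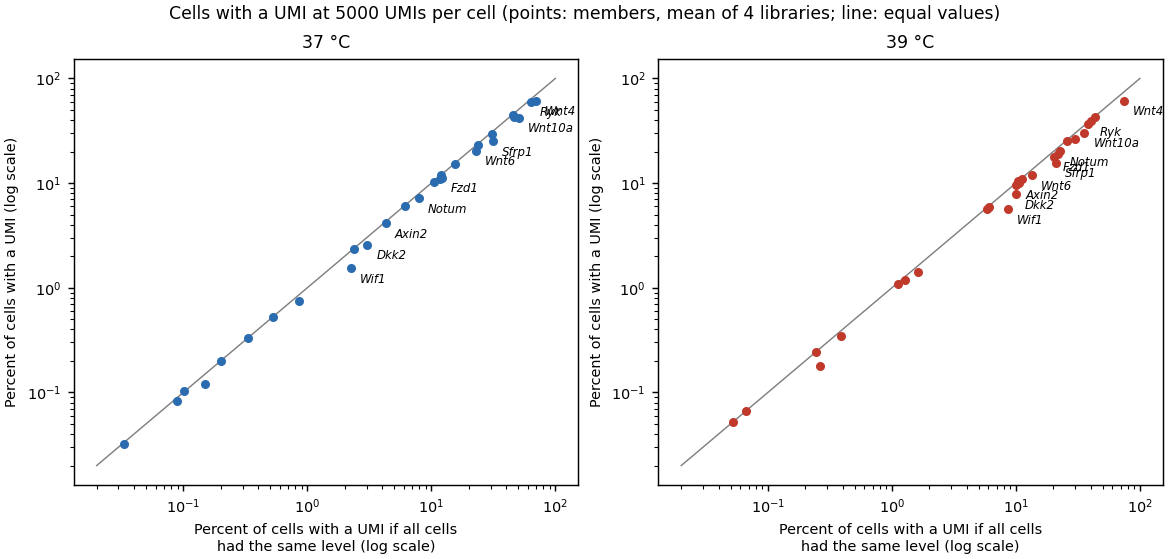
Percent of cells with a UMI of each of 28 members after thinning to 5000 UMIs per cell (mean of 4 libraries, log scale), against the percent that an equal level in all cells would give, at 37 °C (left) and 39 °C (right), with a line of equal values. Wif1, Dkk2 and Sfrp1 lie below the line, with 5.62% against 8.60% for Wif1 at 39 °C, and so do Wnt4 and Wnt10a.

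The lists of other pathway genes and of target genes below were drawn up with earlier results of these data known. Other genes of the pathway were taken from a list by role, apart from the members. Of 64 such genes 56 were tested, and 28 were higher at 39 °C and 10 lower, with 6 called higher and 2 lower and a median log2 fold change of 0.16. Over all tested genes 31.5% were higher, 30.5% lower, 6.47% called higher and 7.62% called lower, with a median of 0.02, and the counts by role below stand against the same shares. In the destruction complex 7 of 11 were higher and 1 lower, including Tnks2 (133 ± 6.55 and 199 ± 7.38 CPM, SD, n = 4, log2 0.58, adjusted p = 3.27e-09), which marks Axin for degradation, and Siah1a (32.7 ± 0.915 and 55.3 ± 4.05 CPM, 0.75, adjusted p = 2.64e-10), a ubiquitin ligase. Among nuclear partners 8 of 15 were higher and 3 lower. Tle1, a corepressor of TCF factors, was at 51.7 ± 2.18 and 104 ± 2.60 CPM (1.01, adjusted p = 4.23e-13), the coactivator Bcl9l rose by 0.56 (adjusted p = 2.01e-09), and the corepressor Ctbp1 fell by 0.52 (adjusted p = 1.95e-08).

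Of 9 signalosome genes 4 were higher and 2 lower, among them the casein kinase Csnk1g1 (75.4 ± 3.403 and 111 ± 2.89 CPM, SD, n = 4, 0.56, adjusted p = 2.96e-09). Of 12 planar cell polarity genes 11 were tested, with 7 higher and 1 lower, among them Ptk7 (21.2 ± 1.38 and 39.1 ± 3.22 CPM, 0.87, adjusted p = 3.06e-10). Of 7 agonist genes 5 were tested, with 1 higher and 2 lower. Lgr4, a receptor for R-spondins, was at 34.6 ± 1.36 and 17.9 ± 2.59 CPM and fell by 0.94 (adjusted p = 1.18e-09). Of the 2 genes for ligand secretion 1 was lower and 0 higher, and of 8 further extracellular inhibitors 3 were tested with 1 higher.

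Among 15 genes widely reported as targets of the canonical branch, 12 were tested, 7 were higher (31.5% of all genes) and 2 lower (30.5%), and the median log2 fold change was 0.52 against 0.02 for all genes. Fosl1 (23.9 ± 1.57 and 58.6 ± 5.59 CPM, SD, n = 4) rose by 1.30 (adjusted p = 1.99e-12), Ephb3 (20.6 ± 0.647 and 31.5 ± 0.909 CPM) by 0.62 (adjusted p = 1.72e-09), and Jun (93.2 ± 3.63 and 133 ± 5.97 CPM) by 0.52 (adjusted p = 1.38e-08). Cd44 rose by 0.51 (adjusted p = 7.81e-09) and Ccnd1, a cyclin of G1, by 0.37 (adjusted p = 4.28e-06). The 2 that fell were Myc, a growth regulator (19.4 ± 2.35 and 11.5 ± 1.59 CPM, by 0.75, adjusted p = 9.21e-07), and Wisp1 (161 ± 6.21 and 135 ± 8.23 CPM, by 0.25, adjusted p = 0.000295). They were named after their values were seen, as was Sox9, which rose by 1.29 (adjusted p = 3.59e-11) at a level under the 20 CPM limit. In G1 cells 11 of the 15 were tested, 6 were higher (24.8% of all genes) and 2 lower (22.4%), with a median of 0.37 against 0.04 for all genes.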

How the data were processed

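The counts were deposited by the authors as whole numbers of UMIs per gene and cell for each of 8 Chromium 3′ libraries, and the submitters' processing notes name Cell Ranger 3.0.1 and mm10. Excluded were 334 cells above 15% mitochondrial UMIs, 440 above 6000 genes and 29 below 200 genes, where 1 cell may fail several limits. No doublet caller was run. Phases were assigned in Seurat 5.3.0 (R 4.3.3, Matrix 1.6.5) from 42 of 43 S and 52 of 54 G2M genes. Raw counts were summed per library, over all cells or by phase, and tested by edgeR 4.0.16 (limma 3.58.1, quasi-likelihood, TMM factors, Benjamini-Hochberg adjustment over all genes with a mean count of at least 1). Genes passed at an adjusted p under 0.05 and were called at a log2 fold change over 1 in size. The phase model used 16 sums with the library as a block. SE was taken as the log2 fold change over the root of edgeR's F. The fits were also run on simulated counts with a single dispersion for all genes and no further spread between libraries. That run checked the code and does not measure error rates in these data. Shares of cells were computed in Python 3.11.15 (numpy 2.4.6, pandas 2.3.3).

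Described members had a mean of at least 10 CPM at the temperature where they were higher, or were called with at least 20 UMIs (28 members), and the rest are given more briefly. The 8 other pathway genes and 5 target genes were the passing ones with at least 20 CPM at the higher temperature and the largest log2 fold changes in size, and Myc, Wisp1 and Sox9 were added after their values were seen. Members and lists were chosen with earlier results of these data known. Alternatives were DESeq2 1.42.0, other scalings, gene and cell filters, phase scoring, equal totals, replicate numbers as a block, and leaving out each library. Libraries shared at most 5 cell barcodes. Intervals and upper limits cover counting error only. Coordinates are from GENCODE M21 on GRCm38.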

Additional observations from a re-analysis of the deposited data

Results flagged for a closer look

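Among 56 groups of 4 libraries (28 members at each temperature), 4 held a library that stood apart from the other 3 by a gap beyond Dixon's 95% critical value. Chance gives this in about 1 of 20 groups. Wnt10a was at 76.6 CPM in 39 °C replicate 4, with 89.3 to 90.9 CPM in the others. Lef1 was at 4.14 CPM in 39 °C replicate 1, with 1.66 to 2.08 CPM in the others. Wnt9a was at 21.4 CPM in 37 °C replicate 2, with 26.2 to 26.9 CPM in the others. Nkd2 was at 3.08 CPM in 39 °C replicate 4, with 3.52 to 3.58 CPM in the others. The difference between temperatures in the G2M against G1 value of Wnt10a was -0.39 on the log2 scale, by the interaction test in edgeR.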

How the results depend on the processing

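The total counts of members passing or called, both directions together, stayed within 1.5 times the reported ones in all cells and in G1 cells under every alternative run. Of members called in G1, 5 were higher and 2 lower with RLE factors, upper-quartile factors or DESeq2, and 6 and 2 with equal totals, in place of 6 and 1. In all cells 1 was called lower with filterByExpr or the replicate block and 4 with a mitochondrial limit of 10%, in place of 2. Equal totals, which hold fewer counts by construction, left 4 members passing between phases at 37 °C and 7 at 39 °C. The number whose phase difference changed with temperature was 0 with library totals only, filterByExpr, DESeq2, no replicate block, a limit of 5000 genes or equal totals, 2 with no upper limit on genes or a mitochondrial limit of 10%, and 8 with phases scored per library. It ranged from 1 to 4 when single libraries were left out. Signs turned for Axin1 in G1 to 0.0034 (all deposited cells), 0.0020 (no upper limit on genes) and 0.015 (updated phase lists), Tcf7 in all cells to -0.018 and Nkd2 in G1 to -0.0656 (5000 genes), Lrp6 in G1 to -0.0069 and between phases at 37 °C to 0.10, Axin1 between phases at 37 °C to -0.54 (equal totals), and Wnt4 between phases at 39 °C to 0.0064 (phases per library). With single libraries left out, values ran from -0.018 to 0.051 for Tcf7 in all cells, and in G1 from -0.21 to 0.40 for Wnt5a, -0.21 to 0.24 for Nkd2 and -0.12 to 0.089 for Axin1. The cause was not tested. With the replicate block 32 members passed in all cells (13 called) and 24 in G1 (9 called), and Wnt10b in all cells did not pass (-1.18, adjusted p = 0.0552). Same-numbered libraries did not deviate together for replicates 1, 2 and 3 (r = -0.12, -0.12 and -0.09 over 8358 genes), while r was 0.29 for replicate 4. The numbers were not read as pairs. The 39 °C G2M sums limit the phase values at that temperature.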

Other observations

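Several ligand genes are neighbours on the mouse genome (GENCODE M21, GRCm38). Wnt6 and Wnt10a lie 6193 bases apart on chromosome 1, and both were lower at 39 °C. Wnt9a, higher at 39 °C, lies 16175 bases from Wnt3a on chromosome 11, which had 2 UMIs in all libraries together. Wnt10b and Wnt1 lie 11706 bases apart on chromosome 15, with 37 and 24 UMIs. Wnt9b and Wnt3 lie 24328 bases apart on chromosome 11, with 0 and 2 UMIs.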
